A study of Homo sapiens with 12 samples.

Results

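MHC class II genes were followed in RNA-sequencing of the human acute myeloid leukemia cell line U937, a myelomonocytic line. The genes were taken by symbol, as a named group of the class II pathway: CIITA, CD74, HLA-DRA, HLA-DRB1, HLA-DPA1, HLA-DPB1, HLA-DQA1, HLA-DQB1, HLA-DMA and HLA-DMB. These 10 of 44786 symbols held 438 of the 197782 rows of the deposited table, each row being 1 annotated transcript. Cells were untreated, or received 200 nM decitabine (DAC, a nucleoside analog that traps DNA methyltransferases), 1 µM all-trans retinoic acid (ATRA, the ligand of retinoic acid receptors), or DAC + ATRA, with 3 libraries in each of the 4 groups. All cells shared a medium with serum and GM-CSF per the labels, and DAC was renewed daily over 3 days. By the methods of the study, ATRA was added only with the last daily DAC dose, so exposure to ATRA was shorter than to DAC. The libraries were described as technical triplicates of 1 cell line, so p-values measure only the spread between such libraries. Untreated cells were labelled 96 h and treated cells 72 h, whereas the series text gives 72 h for the harvest, and if the labels hold, time and treatment cannot be told apart. The untreated cells carried no DMSO label, although the ATRA stock was dissolved in DMSO.

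MHC class II molecules present peptides from endosomes to CD4+ T cells. Each is a pair of an alpha and a beta chain (HLA-DR, HLA-DP or HLA-DQ), assembled in the endoplasmic reticulum on the invariant chain CD74, which is later trimmed by cathepsins, and HLA-DM exchanges the remaining fragment for antigenic peptide. CIITA, the master coactivator of these genes, does not bind DNA itself but is recruited by RFX, CREB and NF-Y proteins at the X and Y boxes of class II promoters.

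The X and Y boxes are shown for 5 promoters, because they are the sequence element that CIITA-dependent genes share, and because HLA-DRB1 and HLA-DRB5 carried nearly all class II chain reads in the table. Capitals mark the X box on the left and the Y box on the right. Each run is on the strand of its gene, in RefSeq promoters of build GRCh38.p14.
HLA-DRB1: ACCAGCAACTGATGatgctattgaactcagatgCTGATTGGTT
HLA-DRB5: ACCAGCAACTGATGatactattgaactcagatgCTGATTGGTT
HLA-DQB1: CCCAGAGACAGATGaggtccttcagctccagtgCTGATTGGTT
HLA-DMA: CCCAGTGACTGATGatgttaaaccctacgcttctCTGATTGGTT
HLA-DMB: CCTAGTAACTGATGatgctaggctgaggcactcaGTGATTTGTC

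These runs lie on the minus strand at chr6:32589888-32589930 for HLA-DRB1, chr6:32530371-32530413 for HLA-DRB5, chr6:32666739-32666781 for HLA-DQB1, chr6:32953170-32953213 for HLA-DMA and chr6:32941076-32941119 for HLA-DMB, all upstream of the annotated start. The runs of HLA-DRB1 and HLA-DRB5 were identical at 42 of 43 positions. The search took a match to the X box consensus (14 letters, up to 3 mismatches) followed on the gene strand by the Y box consensus (10 letters, up to 2 mismatches) after 18 to 21 bases, so that the boxes could not overlap. Of the runs shown, HLA-DMB had 2 mismatches in its Y box, the most allowed. HLA-DRB1 and HLA-DRB5 had 1 each in the X box, and HLA-DQB1 and HLA-DMA had 0. Of the 10 genes, 8 were in the promoter table, which did not list CIITA and HLA-DRA, and 6 of the 8 held a pair. CD74 and HLA-DPB1 held none under these limits, and HLA-DPA1 held a pair in 1 of its 2 promoters. Of 35116 promoters of 300 bases, 0.168% held a pair on the gene strand and 0.393% on either strand. A match describes letters in a window and is not a measured site.

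**Figure D1:**
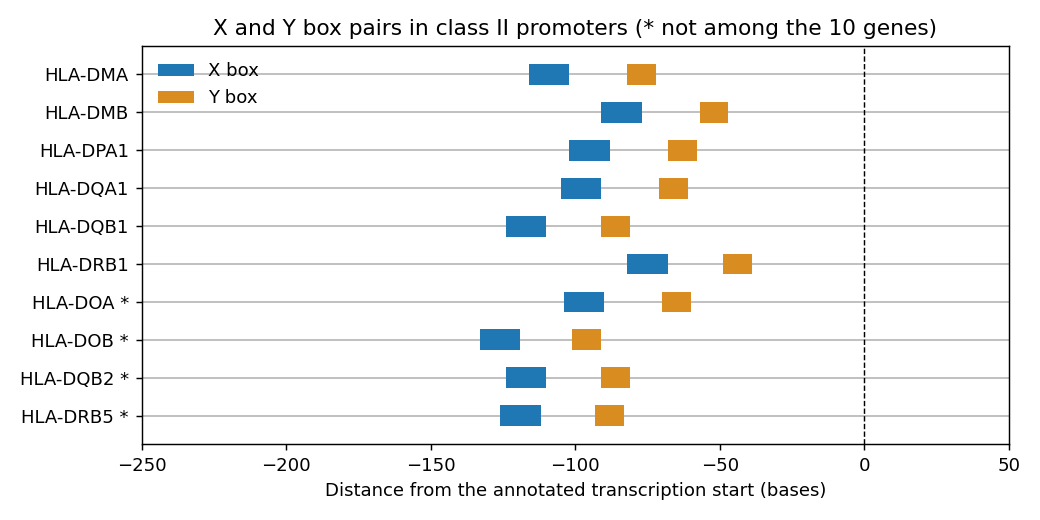
Positions of the X box (blue) and the Y box (orange) along each promoter, with the distance from the annotated transcription start on the x axis in bases and the start at 0; a star marks chains outside the 10 genes. The boxes of HLA-DRB1 run from -82 to -40 and those of HLA-DRB5 from -126 to -84, and every pair shown lies upstream of the start.

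The table listed most of the class II genes at or near 0, and this set what could be compared. Of the 10 genes, 5 had no read in any of their 297 rows in any library: HLA-DRA, the alpha chain of HLA-DR, both HLA-DP chains, and both chains of HLA-DM. Another 3, CD74, HLA-DQA1 and HLA-DQB1, had reads but no row that passed the filter of at least 10 normalized read-counts in at least 3 libraries. Only CIITA and HLA-DRB1 had a row that passed. In all, 17 of the 438 rows had a read.

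Of the 438 rows, 74 were on the primary assembly by GENCODE release 44 and 364 were not, being models of alternate haplotypes or retired identifiers. HLA-DMA had 70 rows of the latter kind, HLA-DPB1 63, HLA-DPA1 57 and HLA-DMB 56. Only 2 of the 364 rows had a read, 1 row of HLA-DRB1 with 5 reads in all and 1 row of HLA-DQA1 with 3. HLA-DRB1 had 1 row on the primary assembly and 29 elsewhere, and the 1 primary row carried 3286 of its 3291 reads.

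Symbols with many rows off the primary assembly more often had no read in the file. Among protein-coding symbols with at least 10 rows off the primary assembly, 57.5% of 306 had no read in any row, against 15.6% of 15499 symbols with none. PTPRC, which encodes CD45 and is carried by leukocytes including this line, was listed at 0 in all 28 of its rows, and TUBB, a tubulin gene chosen after its value was seen, had 1 read in 32 rows. ACTB, GAPDH and B2M had reads in every library, at 64 to 202, 88 to 189 and 41 to 103, of 8042435 to 10683593 counted. Overlap between rows of a gene varied too. All 1223 bases of the primary HLA-DRB1 row lay outside other transcripts of its gene. Rows without reads included a row of HLA-DMA with 0 such bases and a row of HLA-DPB1 with 2515 of 3991. Whether rows off the primary assembly or such overlap led to low or absent counts was not tested. A listing at 0 is therefore given as such, and whether the RNA was present was not tested.

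**Figure D2:**
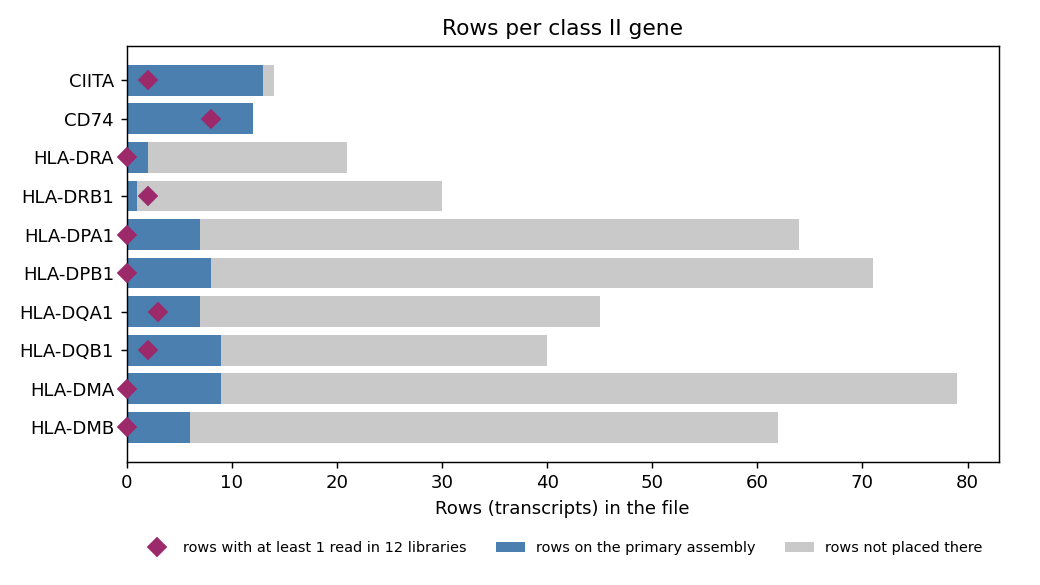
Number of rows (transcripts) in the table for each of the 10 genes, split into rows on the primary assembly (blue) and rows not placed there (grey), with a diamond at the number of rows with at least 1 read in the 12 libraries. The diamonds sit at 0 for 5 genes, and HLA-DRB1, with 1 primary row, has 2 rows with reads.

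CIITA was upregulated by DAC and further by DAC + ATRA. Its leading row, ENST00000324288.12 (transcript at chr16:10877202-10936394, plus strand, GENCODE 44), had 3, 2 and 4 reads in the untreated libraries, 21, 22 and 25 with DAC, 4, 5 and 9 with ATRA, and 59, 67 and 56 with DAC + ATRA. As normalized read-counts these were 2.76, 1.82 and 3.69 untreated, 22.7, 21.4 and 24.9 with DAC, 4.22, 4.55 and 7.49 with ATRA, and 53.3, 70.5 and 69.2 with DAC + ATRA. The DAC + ATRA libraries lay above all others, and the DAC libraries above all untreated and ATRA libraries. The lowest ATRA library and the highest untreated library both had 4 reads (4.22 and 3.69 normalized).

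Normalized read-counts are reads divided by 1 size factor per library, and changes were tested in 1 limma fit over all 12 libraries with a threshold of 0.01 for the Benjamini-Hochberg adjusted p. In that fit, CIITA rose by a log2 fold change of 2.70 ± 0.31 (SE, n = 3 libraries per group) with DAC and of 4.14 ± 0.31 with DAC + ATRA (limma, Benjamini-Hochberg adjusted p = 2.68e-07 and 3.35e-10). On the log2(value + 1) scale these changes understate those of such low counts. CIITA passed the filter only through its libraries with DAC, so both calls against untreated were close to fixed by the filter. From the summed reads, the ratio to untreated was 8.36 with DAC (95% exact interval 4.15 to 19.1) and 23.1 with DAC + ATRA (11.9 to 51.3), where the interval covers counting error only and the untreated side rests on 9 reads. With ATRA alone the log2 fold change was 0.77 ± 0.31 (limma, adjusted p = 0.107), with a ratio of 2.01 (0.859 to 5.09) and did not pass the threshold. At 9 reads untreated, an effect of ATRA alone of that size was not resolved.

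Added to DAC, ATRA raised CIITA again. The log2 fold change of DAC + ATRA over DAC was 1.44 ± 0.31 (limma, adjusted p = 0.00191) and the ratio of reads 2.76 (2.08 to 3.70). The call rested on both DAC + ATRA libraries with the highest values: without library 11 it was 1.37 (limma, adjusted p = 0.0148) and without library 12 it was 1.38 (adjusted p = 0.015). Against ATRA alone, DAC + ATRA was higher by 3.37 ± 0.31 on the log2 scale (limma, adjusted p = 1.2e-08), a call also close to fixed by the filter. The DAC x ATRA interaction, which asks whether the joint effect exceeded the sum of the single log2 effects, was 0.67 ± 0.44 (95% interval -0.24 to 1.58; limma, adjusted p = 0.473).

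The CIITA row shared 830 of the 16061 bases of its GENCODE 44 model with DEXI on the opposite strand, and the strand setting of the counting was not given. DEXI rows had 30 to 39 reads untreated, 18 to 80 with DAC, 20 to 63 with ATRA and 30 to 48 with DAC + ATRA, and these ranges overlapped between all groups. The model in GENCODE 44 is a later version than the row's. The only other CIITA row with reads, a retained-intron transcript (ENST00000575513.1), had 2 reads with DAC and 2 with DAC + ATRA.

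HLA-DRB1, a polymorphic beta chain of HLA-DR, was upregulated wherever DAC was given. Its leading row (ENST00000360004.5, chr6:32578775-32589848, minus strand) had normalized read-counts of 87.3, 85.6 and 80.3 untreated, 424, 521 and 507 with DAC, 115, 107 and 80.7 with ATRA, and 438, 453 and 414 with DAC + ATRA. DAC and DAC + ATRA libraries overlapped each other and lay above all untreated and ATRA libraries, which also overlapped. The log2 fold change was 2.50 ± 0.14 (SE, n = 3) with DAC and 2.35 ± 0.14 with DAC + ATRA (limma, adjusted p = 5.12e-12 and 1.05e-11). Ratios of summed reads were 5.76 (95% exact interval 5.06 to 6.57) and 5.17 (4.53 to 5.91).

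HLA-DRB1 did not pass the threshold with ATRA, alone or on top of DAC. With ATRA alone the log2 fold change was 0.24 (95% interval -0.05 to 0.53; limma, adjusted p = 0.293), and for DAC + ATRA against DAC it was -0.15 (-0.44 to 0.14; adjusted p = 0.546). The same step on CIITA was 1.44, but whether the 2 genes differed in it was not tested. DAC + ATRA against ATRA was 2.11 ± 0.14 (limma, adjusted p = 9.18e-11) and the interaction -0.39 ± 0.20 (adjusted p = 0.324).

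HLA-DRB5, a second HLA-DR beta chain with a near-identical sequence, was outside the 10 genes, and of 7 further class II chains in the file it was the only one with reads. It gave 121, 145 and 118 normalized read-counts untreated, 387, 463 and 467 with DAC, 174, 163 and 132 with ATRA, and 467, 535 and 515 with DAC + ATRA. All libraries with DAC lay above all without. DAC raised it by a log2 fold change of 1.77 ± 0.13 and DAC + ATRA by 1.98 ± 0.13 (limma, adjusted p = 6.36e-10 and 8.31e-11), and the value for ATRA alone was 0.28 ± 0.13 (limma, adjusted p = 0.184). Against DAC, DAC + ATRA was higher by 0.21 (limma, adjusted p = 0.337).

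Reads of these copies can be assigned to either, so the sum and the split were both examined. Per kb of transcript, by GENCODE 44 lengths of 1223 and 1250 bases from later model versions than the rows, HLA-DRB1 stood at 73.6, 60.4 and 69.5% of HLA-DRB5 in the untreated libraries, 111.9, 115.1 and 110.9% with DAC, 67.5, 67.4 and 62.4% with ATRA and 95.9, 86.5 and 82.1% with DAC + ATRA. The DAC libraries were above all others and the DAC + ATRA libraries above the untreated and ATRA ones. This ratio was looked at after the values were seen. The exact permutation p for DAC against untreated was 0.1, the smallest that 3 against 3 libraries allow, and for DAC + ATRA against DAC it was also 0.1 (0.2 after Benjamini-Hochberg adjustment over 20 such comparisons). The summed HLA-DRB1 and HLA-DRB5 differed by 0.03 between DAC + ATRA and DAC on the log2 scale (limma, adjusted p = 0.902).

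**Figure D3:**
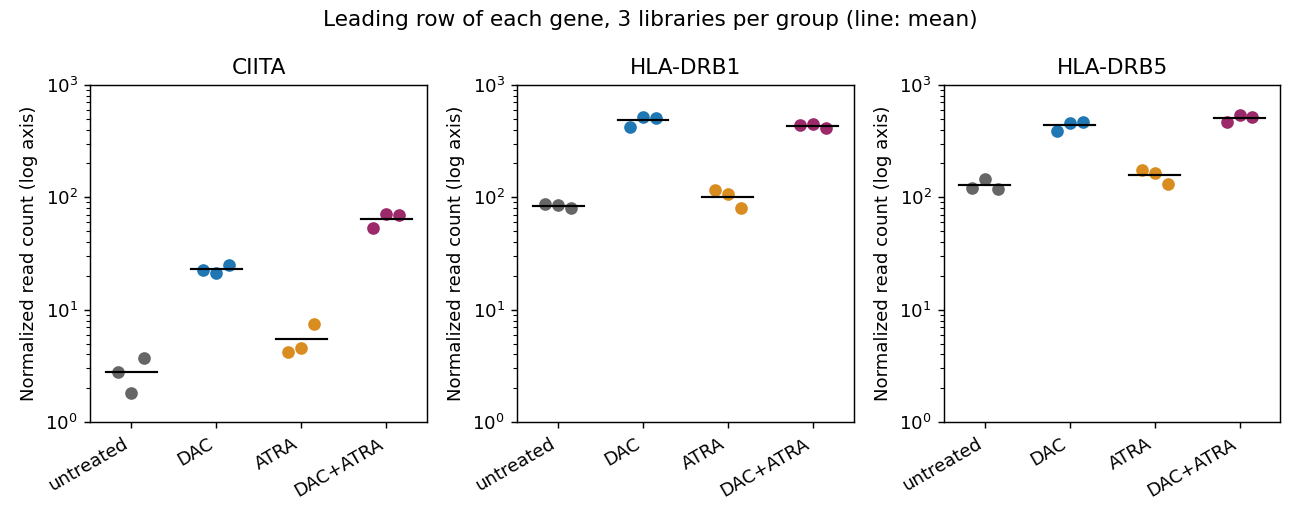
Normalized read-counts on a log axis of the leading row of CIITA, HLA-DRB1 and HLA-DRB5 in each library of the 4 groups, with a line at the group mean. CIITA rises from a mean of 2.76 untreated to 23.0 with DAC and 64.4 with DAC + ATRA, while HLA-DRB1 has means of 84.4, 484.0 and 435.0 and HLA-DRB5 of 128.1, 439.0 and 505.8 in the same groups.

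CIITA passed the filter only through its libraries with DAC, where it was high, so its calls against untreated and ATRA were close to fixed by the filter and the following counts support nothing about the class II genes as a group. Of the 2 genes tested, 2 were higher and 0 lower with DAC, against a background of 30.6% of 9016 tested transcripts higher and 8.7% lower. With DAC + ATRA it was 2 higher and 0 lower, against 32.6% and 14.2%, and with DAC + ATRA against ATRA 2 higher, against 25.9% higher and 8.88% lower. With DAC + ATRA against DAC, 1 was higher, against 6.08% higher and 5.26% lower. With ATRA alone 0 of 2 were called, against 6.47% and 2.67%, while 1 had an unadjusted p under 0.05 and edgeR and DESeq2 also called 0. For the interaction 0 of 2 were called by limma, edgeR and DESeq2, and 0 had an unadjusted p under 0.05, against 0.787% higher and 1.67% lower. Over the tested transcripts, DAC gave a median shift of 0.22 and DAC + ATRA one of 0.20 (log2), which edgeR's TMM scaling brought to 0.02 and 0.06. Relative to those medians CIITA stood at 2.48 and 3.94 and HLA-DRB1 at 2.28 and 2.15.

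HLA-DQA1 and HLA-DQB1, the alpha and beta chains of HLA-DQ, had reads only in libraries with DAC, all at low counts. HLA-DQA1 had 0 reads in each untreated and each ATRA library, 4, 3 and 3 with DAC, and 3, 1 and 5 with DAC + ATRA. HLA-DQB1 had 0 in each untreated and ATRA library, 4, 0 and 2 with DAC, and 8, 3 and 2 with DAC + ATRA. The HLA-DQA1 groups with and without DAC did not overlap, and 1 DAC library of HLA-DQB1 was at 0. A count of 0 allows up to 3 reads, and no fold change is given.

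Exact two-sided permutation p was 0.1 for HLA-DQA1 both with DAC and with DAC + ATRA against untreated, and 0.4 (DAC) and 0.1 (DAC + ATRA) for HLA-DQB1, where 0.1 is the smallest possible, and after Benjamini-Hochberg adjustment over 20 comparisons of this kind none was below 0.2. Of 19 HLA-DQA1 reads, 14 were on a retained-intron row, as were 17 of 19 HLA-DQB1 reads. These reads cannot be taken as spliced chains.

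CD74, the invariant chain, had few reads in every group. Its rows summed to 1, 11 and 12 reads untreated, 3, 4 and 8 with DAC, 17, 14 and 19 with ATRA, and 6, 17 and 8 with DAC + ATRA. The ATRA libraries lay above the untreated and DAC ones, and the other groups overlapped. The exact permutation p of ATRA against untreated was 0.1. Its reads were on 8 of 12 rows, mostly retained-intron transcripts, with 47 on ENST00000523813.1 and 40 on ENST00000517752.5 of 120 in all, while the protein-coding rows held 3. In GENCODE 44 these protein-coding rows had 0, 0 and 2 bases outside other CD74 transcripts, and the retained-intron rows with 47 and 40 reads also had 0.

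**Figure D4:**
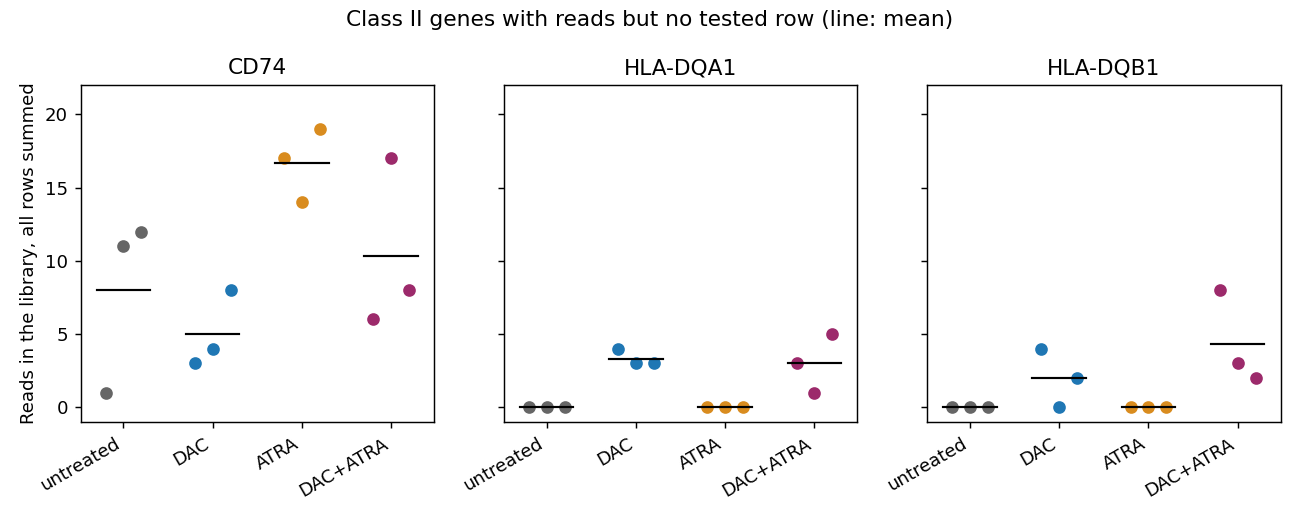
Reads per library, all rows summed, for the 3 genes with reads but no tested row, in the 4 groups with a line at the mean. CD74 has 14 to 19 reads in the ATRA libraries, and HLA-DQA1 and HLA-DQB1 are at 0 in all untreated and ATRA libraries.

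RNA of the factors that hold CIITA at class II promoters was measured as well. Of 7 genes of the enhanceosome, 4 had a tested row, and with DAC + ATRA 0 were higher and 1 was lower, against 32.6% and 14.2% over all tested transcripts. The gene that was lower was RFXAP, a subunit of RFX (log2 fold change -0.68 ± 0.12; limma, adjusted p = 6.83e-05). RFXAP had 212 to 232 normalized read-counts untreated and 135 to 142 with DAC + ATRA, without overlap. RFX5, the large RFX subunit, gave 0.20 (limma, adjusted p = 0.105), and the NF-Y subunits NFYA and NFYB gave 0.33 and -0.39 (limma, adjusted p = 0.0216 and 0.0278). RFXANK had 78 reads in all libraries together and was not tested. The median log2 fold change of the 4 was -0.09, against 0.20 for all tested transcripts.

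Genes that trim the invariant chain or turn over class II included several that were upregulated. Of 11 such genes in the file, 6 were tested, 5 were higher and 0 lower with DAC + ATRA, against 32.6% higher and 14.2% lower over all tested transcripts, and their median log2 fold change was 1.07, against 0.20. Among them CTSD, which encodes the aspartic protease cathepsin D, rose by 3.48 ± 0.22 and CTSS, the cathepsin that cleaves CD74 late in its trimming, by 1.57 ± 0.12 (limma, adjusted p = 2.13e-11 and 3.96e-10). CTSB, cathepsin B, rose by 0.64 ± 0.10 and MARCH8, a ubiquitin ligase of surface proteins, by 1.03 ± 0.32 (limma, adjusted p = 1.35e-05 and 0.00989). MARCH8, counted among the 5, passed the filter mainly through libraries with DAC, which favoured its call as higher. It missed the threshold in edgeR with TMM (1.03, adjusted p = 0.0164), in DESeq2 (1.19, adjusted p = 0.0328) and in limma with size factors from protein-coding transcripts (0.91, adjusted p = 0.0189). With DAC alone 5 of the 6 were higher, against 30.6%, and 4 under those same settings, where MARCH8 again missed the threshold. With ATRA alone 2 were higher, against 6.47%, and 3 in edgeR with TMM, where SPPL2A, an intramembrane protease that cleaves the last CD74 fragment, also passed (0.41, adjusted p = 0.00942).

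Upstream of CIITA, IRF1, the interferon-induced factor that acts on a CIITA promoter, had the largest change of its list with DAC + ATRA and with ATRA. With DAC alone that of IRF4 was larger, but IRF4 passed the filter only through libraries with DAC. The leading row of IRF1 had 53.3 to 53.7 normalized read-counts untreated and 604 to 746 with DAC + ATRA, a log2 fold change of 3.67 ± 0.14 (limma, adjusted p = 5.76e-15). It was 1.21 ± 0.14 with DAC and 2.62 ± 0.14 with ATRA (limma, adjusted p = 2.85e-07 and 1.2e-11), while CIITA did not pass the threshold with ATRA alone. Of 14 regulators, 11 were tested, 7 were higher and 0 lower with DAC + ATRA, against 32.6% and 14.2% over all tested transcripts, with a median of 0.92, against 0.20. IRF4 passed the filter only through libraries with DAC, so its place among these 7 was close to fixed by the filter. With DAC + ATRA IRF4 rose by 1.67 ± 0.35, JAK1 by 0.92 ± 0.09 and CREBBP by 0.55 ± 0.14 (limma, adjusted p = 0.000417, 3.12e-08 and 0.00167). IRF8 gave 0.37 in its leading row (limma, adjusted p = 0.113), and passed the threshold with all its protein-coding rows summed (0.72, adjusted p = 0.00134). JAK2, a kinase of the interferon-gamma receptor named after its value was seen, was the 1 gene of this list with a called interaction, 0.63 ± 0.14 (limma, adjusted p = 0.00851), against 0.787% higher over all tested transcripts.

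**Figure D5:**
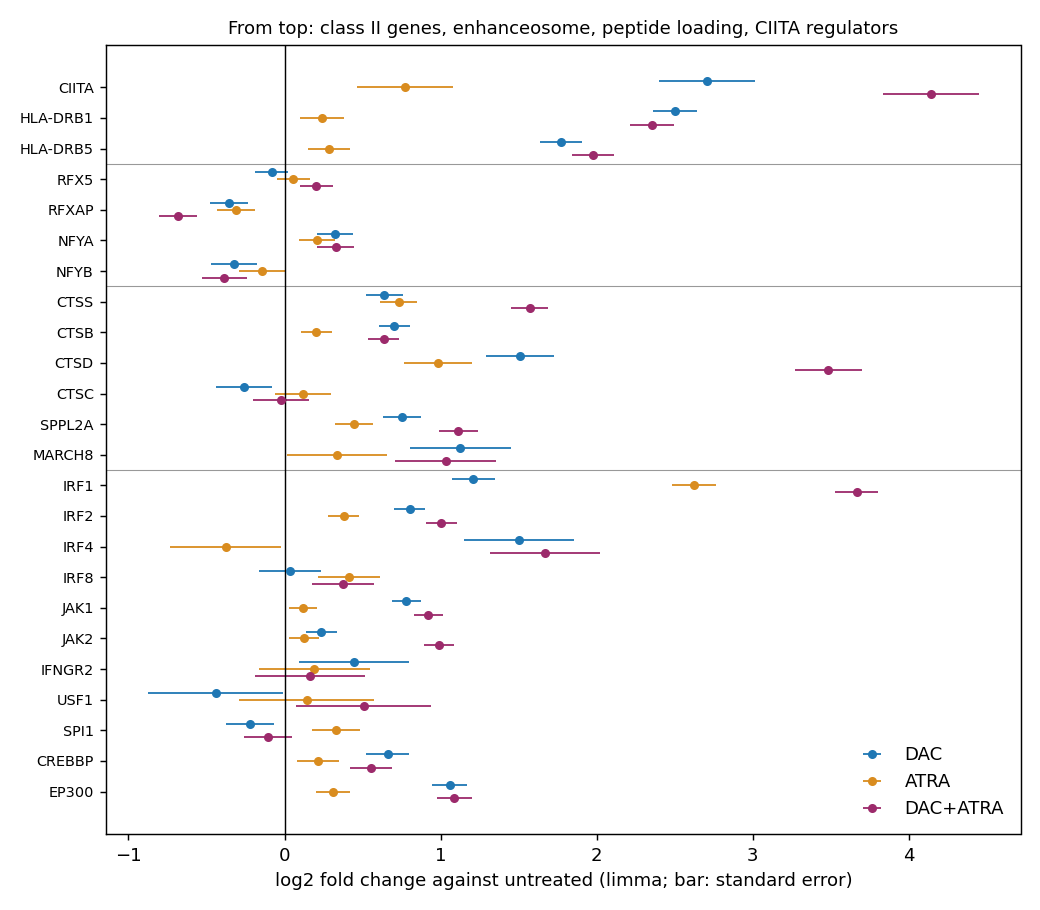
Log2 fold change against untreated (x axis, limma, bar: standard error) with DAC, ATRA and DAC + ATRA for the class II genes with a tested row, and below them the enhanceosome, peptide loading and turnover, and CIITA regulator lists. CIITA reaches 4.14 with DAC + ATRA, IRF1 3.67 and CTSD 3.48, while RFXAP lies at -0.68.

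Markers of other cells that carry class II were counted in the same libraries. The background for each of their counts with DAC + ATRA is 32.6% of all tested transcripts higher and 14.2% lower. Of the B cell list, 3 of 7 genes were tested and 2 were higher with DAC + ATRA, CD79A by 3.34 ± 0.14 and CD22 by 3.81 ± 0.43 (limma, adjusted p = 5.03e-14 and 1.82e-07), while PAX5 gave -0.02 (limma, adjusted p = 0.89) and MS4A1, which encodes CD20, had 9 reads in all. CD22 passed the filter only through libraries with ATRA, so its call as higher was close to fixed by the filter. Summed over the 7 genes, the B cell list ran from 491 to 560 untreated, 888 to 961 with DAC, 599 to 791 with ATRA and 1779 to 1906 with DAC + ATRA. The dendritic cell list summed to at most 20.2 untreated, 117 to 157 with DAC, 44.4 to 49.1 with ATRA and 117 to 146 with DAC + ATRA. Of its 14 genes, CD1B and FCER1A were at 0 in all libraries. FLT3, CD1A, CLEC10A, ZBTB46, LAMP3 and CD1C had 6 to 16 reads each over all libraries. With rows summed, CD83 had 1.82 to 9.19 untreated and 1.24 to 2.71 with DAC + ATRA, and BATF3 had 2.76 to 6.37 and 14.7 to 20.8. The 3 tested genes of this list were CLEC9A, XCR1 and CCR7, which had at most 1.85 normalized read-counts untreated and passed the filter only through treated libraries, so that their being higher was fixed by the filter. With DAC + ATRA they were higher, CLEC9A by 4.86, XCR1 by 4.20 and CCR7 by 4.28 (limma, adjusted p = 9.49e-11, 6.72e-08 and 1.52e-09). The monocyte and macrophage list summed to 231 to 260 untreated, 1784 to 2393 with DAC, 1202 to 1267 with ATRA and 3820 to 3993 with DAC + ATRA. Most of the DAC + ATRA sum came from ITGAM (2659 to 2870) and MRC1 (617 to 838). Of the 9 genes of this list, FCGR3A and MARCO were at 0, and CD14, CD163 and VCAN had 8, 13 and 1 reads in all. The 3 tested genes were higher with DAC + ATRA: MRC1 by 5.71, ITGAX, which passed the filter only through treated libraries, by 3.77 and ITGAM by 3.75 (limma, adjusted p = 7.17e-13, 1.15e-11 and 2.08e-17). The T cell list never passed 14.8 and had no tested gene. Of the markers of the line itself, ANPEP rose by 2.22 while MPO fell by 1.80 and FUT4 by 1.46 on the log2 scale with DAC + ATRA (limma, adjusted p = 4.91e-09, 6.73e-09 and 1.85e-10), CD33 was present at 735 to 894 in all libraries, and PTPRC and CSF2RA were listed at 0. The part of such marker changes in the class II values was not tested, and in bulk RNA more cells with class II and more RNA per cell cannot be told apart.

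The 10 protein-coding genes outside the list with the profile most like the mean of CIITA and HLA-DRB1 had a Pearson correlation of 0.991 to 0.996 with it over the 12 libraries, which share 4 treatments and hence much of their variation. They were IGFBP5, TMEM233, PECAM1, ATP6V0A1, IQSEC1, S1PR1, CDCP1, ACVRL1, ADAMTS15 and ITPR1. Between CIITA and HLA-DRB1 it was 0.903, and between HLA-DRB5 and HLA-DRB1 0.987.

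The libraries held 8042435 to 10683593 counted reads, and by their size factors 3 reads corresponded to 2.50 to 3.71 normalized read-counts. Depth did not differ by group by more than it did within the DAC + ATRA libraries, which held both extremes.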

How the data were processed

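Total RNA of 12 libraries was depleted of ribosomal RNA and made into stranded libraries. Per the labels, reads were processed with FastQC, STAR, HTSeq and DESeq2 on hg38; versions, counting mode and strand setting are not given in the sources used here. The deposited values are a signal that the authors made by dividing the read count of each transcript by 1 size factor per library. Whole reads were recovered from all values (100.0% within 0.001 of a whole number). No column carried a replicate number, so columns were assigned to groups by name.

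Protein-coding transcripts with at least 10 normalized read-counts in at least 3 libraries (9016, of 7622 symbols) were fitted together with limma 3.58.1 (R 4.3.3; trend and robust) on log2(value + 1) over 12 libraries, with Benjamini-Hochberg adjustment and a threshold of 0.01. The method was tested on simulated data. A symbol is given by its tested row with the highest mean. Values outside the fit had an exact permutation test. Alternatives used edgeR 4.0.16, DESeq2 1.42.0, other filters, scalings and sums. The members and lists were chosen with earlier results of these data known. All 10 members were named; from each list, the 2 highest and 2 lowest called genes with DAC + ATRA, and known CIITA regulators. Some list genes are not reported here.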

Additional observations from a re-analysis of the deposited data

Results flagged for a closer look

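HLA-DQA1 and HLA-DQB1 were not part of the fit, because none of their rows passed the filter, yet both had reads in libraries with DAC and 0 in all untreated libraries. HLA-DQA1 had 10 reads over the 3 DAC libraries and 9 over the 3 DAC + ATRA libraries. HLA-DQB1 had 6 and 13. For HLA-DQB1 the DAC libraries had 4, 0 and 2 reads and overlapped the untreated ones (exact two-sided permutation p = 0.4). Most of the reads were on retained-intron rows.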

How the results depend on the processing

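No paired analysis was possible because the columns are named by treatment and a running number and carry no replicate number. Across 11 alternatives and 12 libraries left out in turn, 397 of 402 single-gene values for CIITA, HLA-DRB1 and HLA-DRB5 kept their direction and their side of the threshold. CIITA in DAC + ATRA against DAC fell short without DAC + ATRA library 11 (1.37) or 12 (1.38), so the number of the 10 genes called there ranged from 0 to 1. HLA-DRB1 in that comparison turned to 0.03 when summed with HLA-DRB5, a sum chosen after seeing the data, and the HLA-DRB5 interaction turned to 0.01 with edgeR and TMM and to 0.01 without ATRA library 7 (-0.19 to 0.01 over the libraries left out). None of these reversed values was called. Testing all transcripts, not only protein-coding ones, gave more calls because more rows were tested: 6485 with DAC (3547 in the protein-coding set), 1351 with ATRA (824), 8065 with DAC + ATRA (4215), 1699 for DAC + ATRA against DAC (1022) and 5688 against ATRA (3136). Leaving out a library moved the interaction calls from 222 to between 148 and 483, the highest without ATRA library 9. Among list genes, NFYB passed the threshold as lower with DAC + ATRA under edgeR with TMM (-0.53, adjusted p = 0.0015) and with size factors from protein-coding transcripts (-0.52, adjusted p = 0.0022). Under both, RFXAP and NFYB were lower with DAC alone (TMM: -0.56 and -0.52), and SPPL2A and IRF2 higher with ATRA (0.41 and 0.35). IRF8 passed as higher with DAC + ATRA with rows summed by symbol (0.72). Depth limits CIITA in untreated cells, at 2 to 4 reads a library.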
